A study of Ovis aries with 8 samples.

Results

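The glutamate receptor genes *GRIA4*, *GRIN1* and *GRM8* and the glial glutamate transporter genes *SLC1A2* and *SLC1A3* were followed in the hypothalamus of the fetal sheep. On the array they were read by every probe whose design name or description gives one of these genes, which were 11 of 15008 probes, 6 for receptors and 5 for transporters. They are 5 of the 862 genes that could be named on the array. The current symbol named 4 of the 11 probes. The other 7 carry older names, namely NR1 for *GRIN1*, MGLUR8 for *GRM8*, EAAT2 and GLT-1 for *SLC1A2*, and EAAT1 for *SLC1A3*. One array was hybridised for each of 8 fetuses from 4 twin sets. In 4 fetuses estradiol-3-sulfate, the sulfate conjugate of estradiol, was infused at 1 mg per day into the lateral cerebral ventricle from an osmotic mini-pump, and 4 twins served as controls. The controls are called untreated in one label and infused with saline vehicle in another, and are called vehicle here. Both groups had surgery at 120 to 127 days of gestation and were sampled at 130 to 134 days, after an infusion of 7 to 12 days by one label and at most 10 days by another. Breed and sex of the fetuses are not given in the sources used here. The whole hypothalamus was extracted, so fewer cells of a type and less RNA per cell cannot be told apart.

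Glutamate is the main excitatory transmitter of the brain. AMPA receptors, of which *GRIA4* encodes a subunit, carry fast synaptic currents. NMDA receptors, of which *GRIN1* encodes the obligatory subunit, pass calcium and act in plasticity and, in the hypothalamus, in the drive to neuroendocrine neurons. *GRM8* encodes a group III metabotropic receptor, a G protein-coupled receptor that lowers transmitter release from nerve endings. *SLC1A2* (EAAT2, also GLT-1) and *SLC1A3* (EAAT1, also GLAST) encode the sodium-driven transporters by which astrocytes clear glutamate from the synapse.

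The probes are 60 bases long, and probes of one gene are not independent of each other, so the sequences on which the comparison of probes rests are shown. They are named by gene and by the base at which they start in the partial coding sequence they were designed from. Capitals mark the bases that a probe shares with another probe of the same gene.
GRIA4, start 482: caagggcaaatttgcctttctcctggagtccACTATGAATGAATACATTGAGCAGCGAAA
GRIA4, start 513: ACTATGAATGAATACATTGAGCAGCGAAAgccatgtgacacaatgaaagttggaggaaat
GRIN1, start 789: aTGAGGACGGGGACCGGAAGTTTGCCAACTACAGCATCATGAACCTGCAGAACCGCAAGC
GRIN1, start 790: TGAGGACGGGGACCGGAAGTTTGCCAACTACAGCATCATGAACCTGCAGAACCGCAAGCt
GRIN1 (NR1), start 523: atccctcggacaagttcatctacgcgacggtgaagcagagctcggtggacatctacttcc
SLC1A2 (EAAT2), start 146: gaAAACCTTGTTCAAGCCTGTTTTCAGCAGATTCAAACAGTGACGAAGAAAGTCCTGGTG
SLC1A2 (EAAT2), start 148: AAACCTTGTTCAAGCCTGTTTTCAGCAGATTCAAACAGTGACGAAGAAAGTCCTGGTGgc
SLC1A2 (GLT-1), start 97: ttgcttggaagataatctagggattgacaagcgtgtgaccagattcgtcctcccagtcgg

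The *GRIA4* probes share 29 bases, the probes of *GRIN1* that start at 789 and 790 share 59, and both EAAT2 probes of *SLC1A2* share 58. These last pairs are near-repeats of a single measurement. The NR1 probe of *GRIN1* and the GLT-1 probe of *SLC1A2* come from other partial sequences of the same genes and overlap none of the others. The *SLC1A3* probes start 65 bases apart and do not overlap. No probe of the 5 genes shared a run of more than 15 bases with a probe of another gene, on either strand. The array design lists all its probes as unmapped, so no genome positions are given.

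Arrays of the treated fetuses were brighter except for a narrow overlap, with a 75th percentile of processed intensity of 1597 to 2282 against 981 to 1633 in vehicle. Values are therefore given as log2 intensity relative to that percentile of the same array, and levels of different probes are not compared. All 8 arrays lay on 1 slide, each group in a column of its own, so an effect of the position on the slide cannot be told apart from one of the infusion. The probe filter asked for signal well above background on at least 4 of 8 arrays and kept 11748 probes, all 11 among them. Of the 11, 10 were well above background on all 8 arrays, and the GLT-1 probe was on 7.

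All 11 probes averaged higher after estradiol sulfate, by 0.21 to 0.76 on the log2 scale, and none passed after adjustment in limma (adjusted p = 0.427 to 0.751). Over the whole array 0 of 11748 probes passed the adjusted threshold (0%), and 1077 had an unadjusted p under 0.05 in limma. At an unadjusted p under 0.05, 8 of the 11 probes were higher, where 6.24% of all probes tested were. None was lower at that p, where 2.93% of all probes were. These 8 were all 6 receptor probes and 2 of the 5 transporter probes. The median difference of the 11 probes was 0.51, against 0.04 over all probes tested, of which 58.1% lay above 0. In 4 of the 11 probes every estradiol sulfate array lay above every vehicle array, as it did in 3.29% of all probes tested. The opposite order was found in 0 of the 11 and in 2.68% of all probes. The 11 probes stand for 5 genes, so these counts hold repeats. The genes were also chosen with earlier results of these data known. These and the later counts are therefore descriptions, not a test against the shares of all probes.

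**Figure D1:**
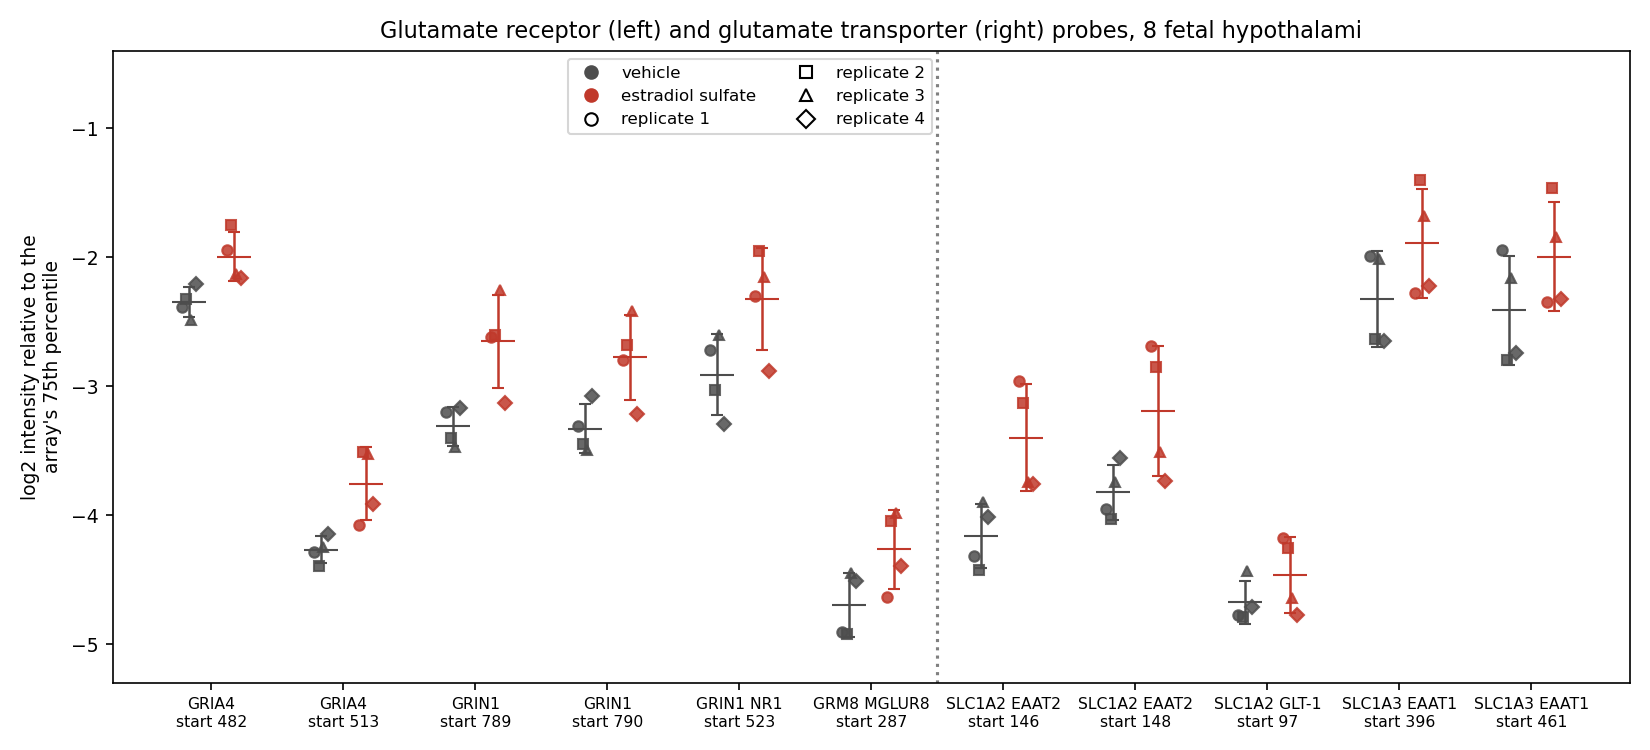
Log2 intensity relative to the array's 75th percentile (y axis) of the 11 probes (x axis), 4 vehicle (grey) and 4 estradiol sulfate (red) arrays each, with marker shapes for the replicate number of the labels and bars for mean ± SD. The groups do not overlap for both *GRIA4* probes, the *GRIN1* probe starting at 789 and the *SLC1A2* probe starting at 146, and overlap most for the GLT-1 and *SLC1A3* probes.

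*GRIA4* separated the groups at both of its probes. At the probe starting at 482, log2 relative intensity was -1.95, -1.75, -2.13 and -2.16 in estradiol sulfate replicates 1 to 4. It was -2.38, -2.33, -2.49 and -2.21 in vehicle replicates 1 to 4. The groups did not overlap, but the lowest treated array (-2.16) and the highest control (-2.21) lay close together. The difference was 0.35 ± 0.13 (SE, n = 4 per group; 95% interval 0.06 to 0.65), a 1.28-fold higher mean (limma, adjusted p = 0.502). At the probe starting at 513, the treated arrays read -4.08, -3.51, -3.53 and -3.91 and the vehicle arrays -4.29, -4.39, -4.24 and -4.14. Again all 4 treated fetuses lay above every control. That probe differed by 0.51 ± 0.15 (SE; 95% interval 0.16 to 0.86; limma, adjusted p = 0.437). The probes' differences were 0.16 apart, within their error (SE 0.16; exact permutation test over 70 splits of the arrays, two-sided, p = 0.429).

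*GRIN1* was the receptor gene with the largest differences, and its 3 probes ran close together. At the probe starting at 789 the treated arrays read -2.62, -2.60, -2.25 and -3.13, and the vehicle arrays -3.20, -3.40, -3.47 and -3.17. Estradiol sulfate replicate 4 was the lowest treated array and lay just above the controls. The difference was 0.66 ± 0.18 (SE; 95% interval 0.25 to 1.07), 1.58-fold (limma, adjusted p = 0.427). The probe shifted by a single base read -2.80, -2.68, -2.42 and -3.21 in treated fetuses and -3.31, -3.45, -3.49 and -3.07 in vehicle. There replicate 4 of each group crossed over, and 3 treated fetuses exceeded every control. It differed by 0.55 ± 0.18 (SE; limma, adjusted p = 0.462).

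The NR1 probe, from another part of the *GRIN1* coding sequence, read -2.30, -1.96, -2.16 and -2.88 in treated fetuses. In vehicle fetuses it read -2.72, -3.03, -2.60 and -3.30. Estradiol sulfate replicate 4 fell within the vehicle range, and the other 3 treated arrays exceeded every control. The difference was 0.59 ± 0.23 (SE; 95% interval 0.08 to 1.09; limma, adjusted p = 0.515). Between the NR1 probe and those starting at 789 and 790 the differences were 0.07 (SE 0.24) and 0.03 (SE 0.26) apart, with exact permutation p = 0.743 and 0.914. The near-identical pair differed by 0.11 (SE 0.05; exact permutation p = 0.0857).

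*GRM8*, read by 1 probe, was -4.63, -4.04, -3.98 and -4.40 in treated fetuses and -4.91, -4.92, -4.45 and -4.51 in vehicle. Estradiol sulfate replicate 1 lay within the vehicle range, and the other 3 treated arrays exceeded every control. The difference was 0.43 ± 0.19 (SE; 95% interval 0.02 to 0.85), 1.35-fold (limma, adjusted p = 0.543). Processed intensity at this probe was 42.9 to 145 over the 8 arrays. The direction of *GRM8* turned to -0.05 when normexp background correction was used with the same 75th percentile scaling. Normexp fits a model to the intensity left after local background is subtracted, and an offset of 50 was then added.

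*SLC1A2* gave the largest difference of the 5 genes at one probe and the smallest at another. The EAAT2 probe starting at 146 read -2.96, -3.13, -3.75 and -3.76 in treated fetuses and -4.32, -4.42, -3.90 and -4.02 in vehicle. The groups did not overlap. Estradiol sulfate replicates 1 and 2 were high, while replicates 3 and 4 lay close to vehicle replicate 3. The difference was 0.76 ± 0.22 (SE; 95% interval 0.28 to 1.25), 1.70-fold (limma, adjusted p = 0.427). Its near-repeat starting at 148 read -2.69, -2.85, -3.51 and -3.73 against -3.95, -4.03, -3.75 and -3.56, and 3 treated fetuses exceeded every control. It differed by 0.63 ± 0.24 (SE; limma, adjusted p = 0.515), 0.14 (SE 0.09) less than the other EAAT2 probe (exact permutation p = 0.200).

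The GLT-1 probe of *SLC1A2* read -4.18, -4.25, -4.65 and -4.78 in treated fetuses and -4.77, -4.79, -4.43 and -4.71 in vehicle. The groups overlapped, with 2 treated fetuses above every control. Vehicle replicate 4 was not well above background there, with a processed intensity of 37.5. The difference was 0.21 ± 0.17 (SE; 95% interval -0.16 to 0.59; limma, adjusted p = 0.751), and it was 0.12 without estradiol sulfate replicate 1. This was 0.55 (SE 0.10) less than at the EAAT2 probe starting at 146. The log2 ratio of the EAAT2 to the GLT-1 probe within an array was 0.90 to 1.22 in treated fetuses and 0.37 to 0.70 in vehicle, without overlap. A 2-sided exact permutation test gave p = 0.0286, the smallest 4 against 4 arrays allow, and 0.229 after adjustment over the 8 probe pairs compared. All permutation tests here split the arrays freely and leave out the 4 twin sets, which the labels do not tie to arrays. Vehicle replicate 4, whose GLT-1 signal was not well above background, set the upper vehicle ratio. Over the 7 arrays with both probes well above background the gap was 0.61 (SE 0.08), with vehicle ratios of 0.37 to 0.53 (exact permutation over 35 splits, p = 0.0286, again the smallest possible). Against the probe starting at 148 the gap was 0.42 (SE 0.15; exact permutation p = 0.0857), or 0.51 over those 7 arrays (exact permutation p = 0.0571). With quantile normalization the gaps were 0.58 and 0.45, with normexp and the 75th percentile 0.36 and 0.40, and with normexp and quantile normalization 0.27 and 0.27. The other 7 pairs did not pass over the 8 pairs either.

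**Figure D2:**
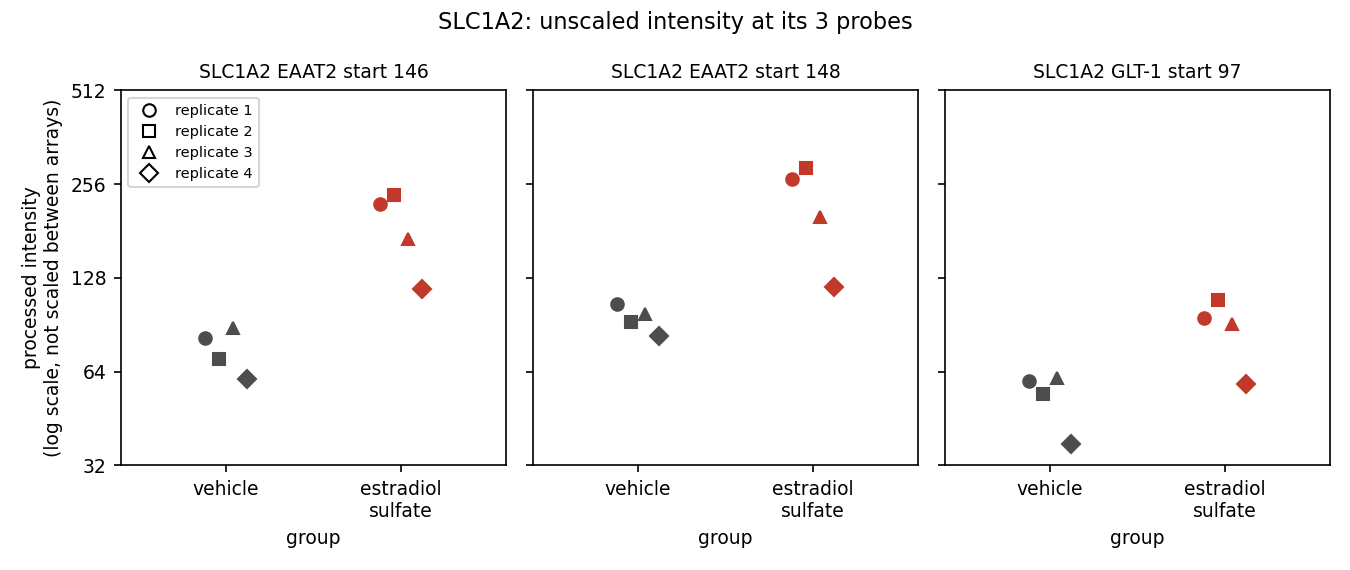
Processed intensity of the *SLC1A2* probes on a log axis, before any scaling between arrays, for 4 vehicle (grey) and 4 estradiol sulfate (red) arrays, with marker shapes for the replicate number. At the EAAT2 probe starting at 146 it was 60.7 to 88.5 in vehicle and 118 to 236 in treated fetuses, and at the GLT-1 probe 37.5 to 61.2 and 58.3 to 109, with all but the lowest treated array brighter at the 75th percentile than every vehicle array.

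*SLC1A3* overlapped between the groups at both probes. At the probe starting at 396 the treated arrays read -2.28, -1.40, -1.68 and -2.22, and the vehicle arrays -1.99, -2.64, -2.01 and -2.65. Each group held a pair of higher and a pair of lower arrays, and 2 treated fetuses exceeded every control. The difference was 0.43 ± 0.25 (SE; 95% interval -0.13 to 0.99; limma, adjusted p = 0.650), and it was 0.27 without estradiol sulfate replicate 2. At the probe starting at 461 the treated arrays read -2.35, -1.47, -1.84 and -2.33 and the vehicle arrays -1.94, -2.80, -2.16 and -2.74. The same arrays were high there, and the probe differed by 0.42 ± 0.26 (SE; limma, adjusted p = 0.670), or by 0.24 without that replicate. The differences of these non-overlapping probes were 0.01 (SE 0.05) apart (exact permutation p = 0.857).

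Receptors and transporters covered a similar range. The 6 receptor probes differed by 0.35 to 0.66, with a median of 0.53, and the 5 transporter probes by 0.21 to 0.76, with a median of 0.43. Groups without overlap were found in 3 of 6 receptor probes and 1 of 5 transporter probes, and in 3.29% of all probes tested. The difference between these classes was not tested.

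**Figure D3:**
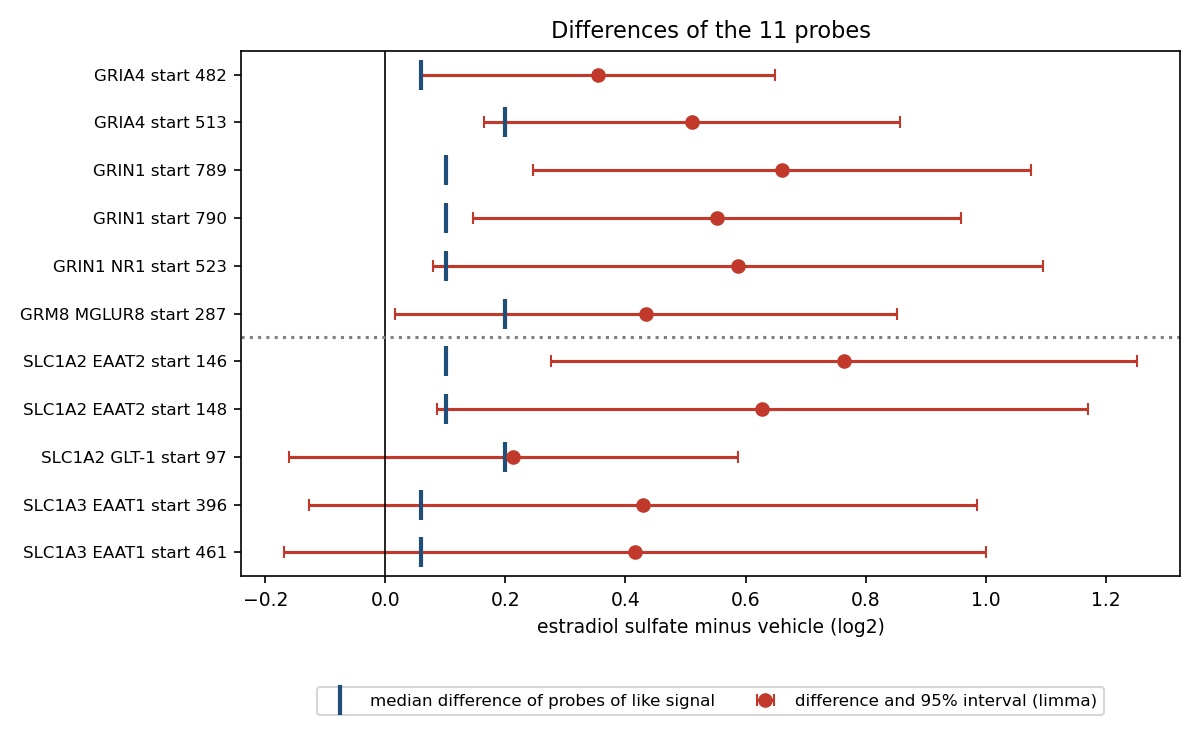
Difference between estradiol sulfate and vehicle (log2, x axis) for the 11 probes with its 95% interval from limma (red), receptors above the dotted line and transporters below, and the median difference of the probes in the same signal bin (blue bars). The points lie at 0.21 to 0.76 and the blue bars at 0.06 to 0.20, and the GLT-1 point lies on its bar.

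Signal and direction moved together across the whole array, and the 5 genes lay on its dim side. When all tested probes were ranked by mean signal and divided into 5 equal bins, the median difference was 0.20 in the dimmest bin, 0.10 in the second, 0.06 in the third, 0.01 in the fourth and -0.12 in the brightest. The *GRIA4* probe starting at 513, *GRM8* and the GLT-1 probe were in the dimmest bin. The *GRIN1* and EAAT2 probes of *SLC1A2* were in the second, and the other *GRIA4* probe and *SLC1A3* in the third. Each of the 11 probes lay above the median of its bin, the GLT-1 probe by the least (0.21 against 0.20). The part of this trend in the differences of the 11 probes was not tested.

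The differences were smaller under the other normalizations. Settings with normexp also add an offset of 50 to the intensity, which draws log2 differences of dim probes toward 0. The part of this offset was not tested. Quantile normalization alone gave a median of 0.02 in the dimmest bin and of 0.37 over the 11 probes. With normexp background correction and quantile normalization, the dimmest bin had a median of 0.02 and all probes of 0.00. There the 11 probes differed by 0.13 to 0.42, with a median of 0.30, all above 0, where 50.1% of all probes were. An unadjusted p under 0.05 was reached by 4 of 11 probes, where 3.56% of all probes tested were higher at that p. These were *GRIN1* starting at 789 (0.42), *GRIA4* starting at 513 (0.33) and both EAAT2 probes of *SLC1A2* (0.39 and 0.40). With quantile normalization alone 2 of 11 probes reached it (background 3.37%), *GRIN1* starting at 789 (0.55) and *SLC1A2* starting at 146 (0.64), and all 11 lay above 0, with 49.4% of all probes. With median scaling 3 did (background 2.94%), and all 11 lay above 0, with 38.3% of all probes. With normexp and the 75th percentile 1 did (background 1.80%), and 9 of 11 lay above 0, with 33.1% of all probes. That last setting moved the median of all probes from 0.04 to -0.08 and turned *GRM8* to -0.05 and the GLT-1 probe to -0.09. It turned the trend as well, with a median of -0.21 in the dimmest bin, which holds both probes. The GLT-1 probe also turned with cyclic loess, to -0.02.

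**Figure D4:**
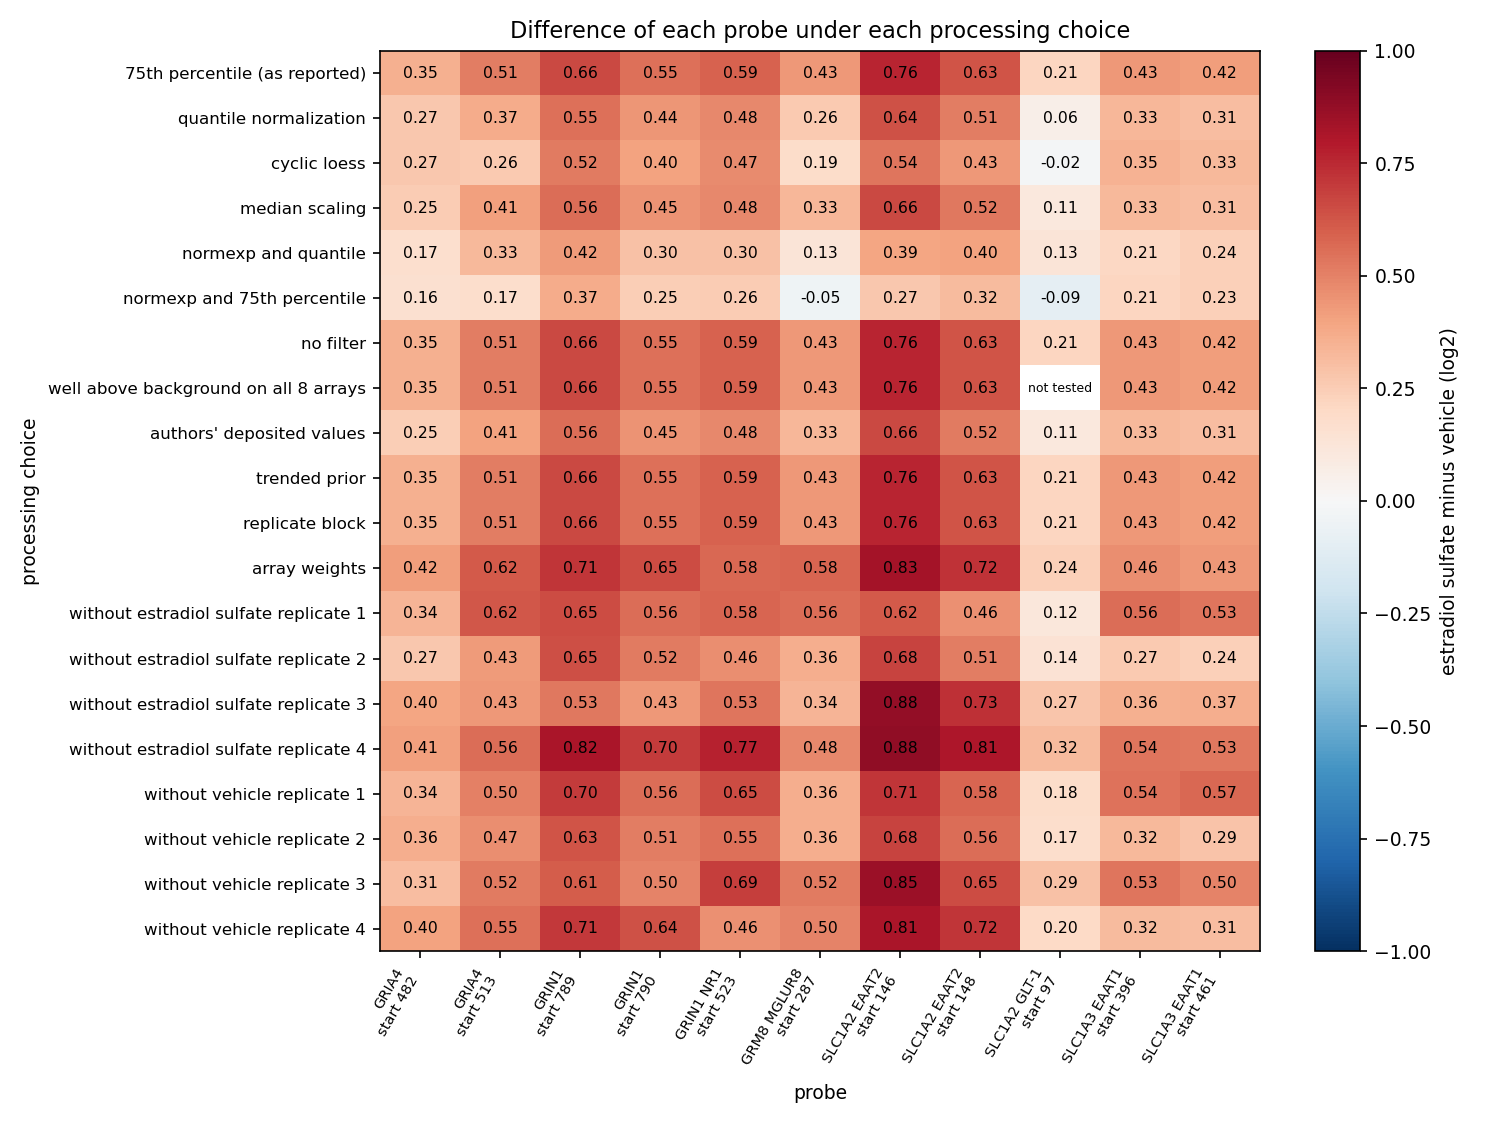
Difference between estradiol sulfate and vehicle (log2, colour and number) of each probe (columns) under each processing choice (rows), the first row being the values reported. *GRM8* and the GLT-1 probe of *SLC1A2* turned below 0 with normexp and the 75th percentile, to -0.05 and -0.09, and the GLT-1 probe with cyclic loess, to -0.02.

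Other genes of glutamate signalling were taken from lists of receptors, transporters, enzymes and scaffold proteins. Of 66 listed genes 17 were named on the array and 15 were tested, the 5 genes above among them. No member of these lists passed over all probes in limma. Without the 5 genes, 9 of 10 lay above 0, where 58.1% of all probes tested did, with a median of 0.28. At the brightest probe of the gene 0 of 10 had an unadjusted p under 0.05. Of all probes tested, 6.24% were higher and 2.93% lower at that p. The other AMPA receptor subunit genes differed by 0.27 ± 0.23 (*GRIA1*), 0.33 ± 0.21 (*GRIA2*) and 0.25 ± 0.16 (*GRIA3*; all SE). With normexp and quantile normalization these differences were 0.31, 0.36 and 0.24.

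Among metabotropic receptor genes, 5 of 6 tested lay above 0, where 58.1% of all probes tested did. *GRM5*, which encodes a group I receptor coupled to calcium release, differed by 0.32 ± 0.19 (SE) at its brightest probe. At its other probe it differed by 0.39 ± 0.15 (SE; limma, unadjusted p = 0.0264, adjusted p = 0.507). With normexp and quantile normalization these were 0.11 and 0.20. *GRM3*, a group II receptor gene that astrocytes also use, differed by 0.37 ± 0.34 (SE). *GRM3* was well above background in 3 treated fetuses and 1 vehicle fetus, and with normexp and quantile normalization it differed by -0.04. *GRM4*, of the same group as *GRM8*, was the one gene below 0, at -0.22 ± 0.14 (SE; limma, adjusted p = 0.697). *GRM2* and *GRM7* were too dim to be tested. The neuronal transporter gene *SLC1A1* differed by 0.33 ± 0.38 (SE) at its brightest probe, or -0.05 with normexp and quantile normalization. That probe was well above background in 4 of 4 treated fetuses and in 1 of 4 vehicle fetuses. *GLUD1*, glutamate dehydrogenase, differed by 0.15 ± 0.12 (SE). No scaffold or auxiliary protein gene of the list was named on the array.

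Astrocyte markers were examined beside the transporters. Of 15 listed markers 5 were named on the array, and 3 were other than *SLC1A2* and *SLC1A3*. These 3 were well above background on all arrays. The water channel gene *AQP4* differed by 0.32 ± 0.36 (SE; 0.55 with normexp and quantile normalization), the gap junction gene *GJA1* by 0.17 ± 0.18 (SE) and the filament gene *GFAP* by 0.12 ± 0.36 (SE), none with an unadjusted p under 0.05. Their mean log2 relative level was 2.17 to 2.39 in treated and 1.69 to 2.47 in vehicle fetuses, so the groups overlapped. By signal, *AQP4* and *GJA1* were in the brightest bin, with a median difference of -0.12, and *GFAP* in the fourth, with 0.01. The transporter probes were in the dimmest to the third bin, with medians of 0.20 to 0.06. The part of these markers in the transporter values was not tested. Of 14 neuron markers only the neurofilament gene *NEFH* was named, at -0.23 ± 0.26 (SE), and of 11 oligodendrocyte markers none.

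Hypothalamic peptide genes were examined too, and their differences between the groups do not test the tissue label. Of 19 listed, 10 were named on the array and tested. Above 0 lay 7 of these, where 58.1% of all probes tested did. The 3 below 0 were *OXT* (-0.88 ± 0.47), *GNRH1* (-1.59 ± 1.12) and *SST* (-0.30 ± 0.44; all SE). No member passed after adjustment in limma, and 3 of 10 had an unadjusted p under 0.05, all higher, where 6.24% of all probes tested were. The appetite peptide gene *NPY* differed by 1.61 ± 0.42 (SE) and the growth hormone-releasing hormone gene *GHRH* by 2.58 ± 0.94 (SE). *AGRP*, another appetite peptide gene, differed by 3.66 (limma, adjusted p = 0.437). *AGRP* and *GHRH* were well above background in 2 of 4 vehicle fetuses. Pituitary hormone genes (3 tested), endothelial markers (3), 1 microglial marker (*ITGAM*) and 1 choroid plexus marker (*TTR*) were also measured, and none passed after adjustment. Their mean levels overlapped between the groups in the pituitary, microglial and choroid plexus lists. The endothelial list lay at -3.48 to -2.97 in treated and -4.04 to -3.53 in vehicle fetuses. Its gene *FLT1*, a receptor for vascular endothelial growth factor, was well above background at its brightest probe in all 4 treated and 0 of 4 vehicle fetuses, so that it passed the filter through the treated group. Without *FLT1* the list lay at -3.00 to -2.67 and -3.60 to -2.65, and the groups overlapped. The part of this list in the values above was not tested.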

How the data were processed

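Per the file headers, spot intensity came from a 1-colour Cy3 scan read out by Agilent's Feature Extraction software, version 10.1.1.1. Processed intensity, as deposited, has background subtracted and spatial trends removed array by array, with no step between arrays. The RNA was 7 years old when labelled, per the labels' protocols. In the authors' deposited log2 table, at least 99.667% of each array's probes differ from log2 processed intensity by a single offset, to within 0.001. Its medians are 0.0576 to 0.075 by array. Scale and direction are thus known, and how the offset was chosen stays unknown. It served as an alternative.

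Control and outlier spots were dropped and replicate spots averaged, then log2 intensity was set relative to the array's 75th percentile, and probes well above background on at least 4 arrays were kept. No spot was saturated. Groups were compared with limma 3.58.1 (R 4.3.3, group as the only term, two-sided, Benjamini-Hochberg over all 11748 probes, threshold 0.05). The steps were tested on simulated data. Precision is limited by the number of arrays, 4 per group, and nothing in the labels ties a replicate number to a twin set. Names came from the array design, older names of glutamate genes from a list written by hand, and others from RefSeq (assembly ARS-UI_Ramb_v3.0), so that 1396 probes have a gene name. For gene lists the brightest probe stands for a gene. All probes of the 5 genes are named. The hypothalamic genes below 0 are named as well. Of each glutamate list up to 5 genes and of each cell type list up to 3 are named, by smallest unadjusted p, together with the 3 named genes nearest in profile. The genes and lists were chosen with earlier results of these data known. One gene that this rule selects is not reported here.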

Additional observations from a re-analysis of the deposited data

How the results depend on the processing

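No probe of the 5 genes passed the adjusted threshold in limma under any of the 19 alternatives, and no probe of the array did. The glutamate list kept a median above 0 throughout. The 265 values recomputed under alternatives include counts of probes that passed. They also include differences that a change of filter, prior or block cannot alter. Of all 265, 3 turned in direction. With normexp and the 75th percentile these were *GRM8* (-0.047) and the GLT-1 probe of *SLC1A2* (-0.088), and with cyclic loess the GLT-1 probe (-0.017). The cause was not tested. Deviations of same-numbered arrays from their group means correlated at -0.01 to 0.25, and not every array correlated best with its own number, so the numbers were not taken as pairs. With the replicate number as a block the 11 differences (0.21 to 0.76) stay the same by design, as each number holds 1 array of each group. In that fit 7 of 11 probes had an unadjusted p under 0.05 in limma in place of 8, and 1158 of all probes did in place of 1077. Leaving out 1 array at a time, the number of the 11 probes at that p ran from 4 (without estradiol sulfate replicate 2) to 7, and their median difference from 0.43 to 0.56. Of all 11748 probes, 695 were at that p without estradiol sulfate replicate 2, and 983 to 1291 in the fits with 7 of the 11. Over the array, the number of probes at that p ran from 693 (quantile normalization) to 2090 (no filter). The probe gaps under other normalizations and over the arrays with both probes well above background were added after the data were seen. So was the endothelial list without *FLT1*. The GLT-1 probe was not well above background on 1 array.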

Other observations

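For the brightest probe of each of the 5 genes, the nearest profiles over the 8 arrays were sought among 680 named genes other than these 5, by the root mean square distance between log2 profiles centred on their own mean. *GRIA4* lay nearest to *TRA2A* (0.07), *ACVR2B* (0.12) and *YBX1* (0.12). *GRIN1*, at its NR1 probe, lay nearest to *TIMP3* (0.15), *YY1* (0.22) and *COL2A1* (0.23), and *GRM8* to *YY1* (0.15), *AGGF1* (0.15) and *FTO* (0.18). *SLC1A2* lay nearest to *EIF3A* (0.18), *GHR* (0.24) and *DERL1* (0.24), and *SLC1A3* to *PPIE* (0.22), *YY1* (0.23) and *TRPM7* (0.24). The transcription factor gene *YY1* was in 3 of these sets and differed by 0.42 ± 0.15 (SE). Among the 5 genes themselves the distances ran from 0.21 (*GRIN1* and *SLC1A3*) to 0.48 (*SLC1A2* and *SLC1A3*). *GRIN1* and *SLC1A3* thus lay nearer to each other than *YY1* lay to either, and the transporters were the pair farthest apart. The arrays of a profile share scaling and group, and these distances are descriptions with no test.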
